A study of Mus musculus with 7 samples.

Results

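The 39 genes described here make up a ribosome biogenesis module: MYC and 38 genes for RNA polymerase I, small nucleolar ribonucleoproteins (snoRNPs), the processing of both ribosomal subunits and the nucleolus. They are defined by a list of symbols, drawn up with earlier results of these data known, and all 39 were found among the 24353 genes of the deposited table. Symbols are given in capitals, as the table prints them for these mouse genes. Each gene has 1 value per library in FPKM (sequenced fragments divided by transcript length and library size), a level that can be compared between genes because it is divided by length.

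The libraries came from endometrial epithelial cells of female C57BL/6 mice that had all been ovariectomized at 6 to 7 weeks of age, so no group had ovarian estrogen. The vehicle group (estrogen deprivation alone) has 1 library, and estradiol, tamoxifen and tamoxifen plus alpelisib have 2 libraries each, labelled as 2 mice. Tamoxifen was injected under the skin at 0.5 mg per day, and alpelisib was given by mouth at 30 mg/kg per day on top of the same tamoxifen dose (below, also the combination). Treatment lasted 28 days in arms of 6 mice, 18 mice in all, and 2 mice carried a 0.01 mg estradiol pellet made to release over 60 days. Alpelisib was never given without tamoxifen, and the sources used here do not give how the mice with a library were picked from each arm. Tamoxifen modulates estrogen receptors and partly activates them in uterine tissue; alpelisib is an inhibitor of the alpha form of PI3-kinase's catalytic subunit.

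Ribosomes are built in the nucleolus. RNA polymerase I transcribes one long precursor of the ribosomal RNAs, guide RNAs held in snoRNPs direct its modification, and large assemblies cut and fold it around ribosomal proteins into a small and a large subunit. MYC is a transcription factor that binds the E-box CACGTG together with MAX and is known to activate genes at most of these steps. Signalling through PI3-kinase and mTOR is known to drive ribosome production in growing cells, and estrogen is known to bring the uterine epithelium into growth.

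For the 33 members with an entry in the RefSeq promoter table (GRCm38.p6; none for MYC, RRP12, NPM1, BOP1, TCOF1 and FBL), the window from 250 bases before to 50 bases after the start was read for the letters CACGTG, which are the same on both strands. It holds them in 7 members (21.2%), against 8.09% of all 27025 genes in that table and 11.7% of the 9412 tested genes that match it. The related letters CACGCG, read on either strand, occur in 13 of the 33 (39.4%), against 10.5% and 19.9%, and at least one of these motifs in 18 (54.5%), against 17.2% and 29%. The median GC content was 57.3% over the members' windows and 60.7% over those of tested genes. The 7 windows with CACGTG are shown because they hold the letters that MYC and MAX are known to bind; each stretch is given 5′ to 3′ on the gene's strand, with the E-box in capitals.

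NOP2: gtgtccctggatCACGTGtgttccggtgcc
GRWD1: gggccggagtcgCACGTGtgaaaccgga
UTP20: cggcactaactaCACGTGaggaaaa
PES1: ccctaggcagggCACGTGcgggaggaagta
MYBBP1A: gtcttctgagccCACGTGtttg
TSR1: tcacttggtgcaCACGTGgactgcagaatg
WDR43: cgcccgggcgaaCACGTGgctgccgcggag

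These stretches lie at chr6:125131811-125131840 (NOP2, plus strand), chr7:45830740-45830767 (GRWD1, minus strand), chr10:88826765-88826789 (UTP20, minus strand), chr11:3963965-3963994 (PES1, plus strand), chr11:72441355-72441376 (MYBBP1A, plus strand), chr11:74898092-74898121 (TSR1, plus strand) and chr17:71616220-71616249 (WDR43, plus strand). The first base of the E-box is at -60 from the start in NOP2, and inside the transcript in the other 6, at bases 3 (PES1), 18 (WDR43), 25 (TSR1), 35 (GRWD1), 38 (UTP20) and 41 (MYBBP1A). A match in letters is a description of the window and does not show binding.

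Over the 7 libraries together, 35 of the 38 members other than MYC had their lowest group mean with tamoxifen plus alpelisib. The exceptions were NPM1 and POLR1C, lowest with tamoxifen alone, and NOP10, lowest with estradiol. The highest group mean was with estradiol in 26 members, in the vehicle library in 10 and with tamoxifen in 2 (BYSL and NOP10). The median level of these 38 genes was 13.3 FPKM in the vehicle library, 15.3 and 15.6 with estradiol, 8.99 and 10.2 with tamoxifen, and 5.69 and 6.34 with the combination. The order estradiol, vehicle, tamoxifen, tamoxifen plus alpelisib was the most frequent, in 20 of the 38. How many of all genes share these extremes or this order was not counted. Over all genes tested, the median log2 fold change of the combination was also negative. It was -0.15 against vehicle, -0.26 against estradiol and -0.03 against tamoxifen.

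**Figure D1:**
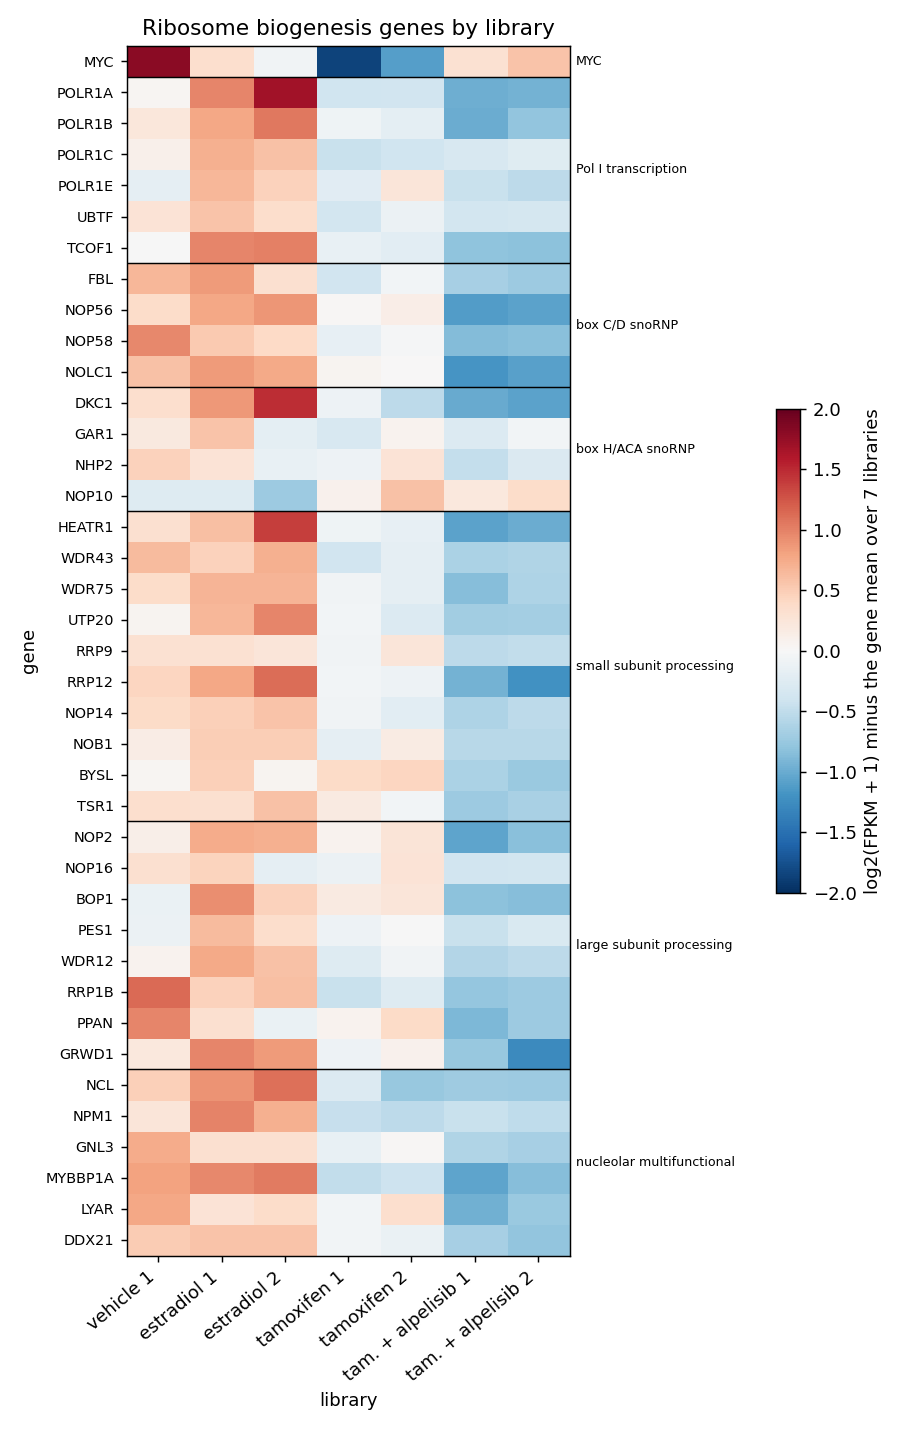
Levels of the 39 members (rows, grouped by role) in the 7 libraries (columns; tam. stands for tamoxifen), as log2(FPKM + 1) minus the gene's mean over the 7 libraries (colour). MYC is highest in the vehicle library and lowest with tamoxifen alone, whereas 35 of the other 38 genes have their lowest group mean with tamoxifen plus alpelisib. The share of all genes with their lowest mean there was not counted.

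The label of the cells was checked against marker lists. Summed FPKM of 12 epithelial markers was 7203 in the vehicle library, 3352 and 2823 with estradiol, 5053 and 6735 with tamoxifen, and 6727 and 7285 with the combination, so both estradiol libraries have the lowest sums. The single genes were mixed. Of the 12, 6 had a negative log2 fold change for estradiol minus vehicle (median -0.14) and 5 for tamoxifen minus vehicle (median 0.45). All 10 proliferation markers summed to 123 FPKM in the vehicle library, 349 and 323 with estradiol, 94.3 and 112 with tamoxifen, and 74.4 and 78.4 with the combination. Between tamoxifen and vehicle the single proliferation markers differed in direction, as given below. The 12 stromal markers summed to 269.5, 191 and 182, 56.1 and 55.7, and 121 and 129 in the same order. DPT was at 0 in estradiol 2 and PDGFRB in tamoxifen plus alpelisib 2. Although the stromal sum was higher with the combination than with tamoxifen, 7 of the 11 stromal markers tested had a negative log2 fold change there (median -0.18). Markers of smooth muscle (8 genes) were highest in the vehicle library at 88.7 FPKM, against 7.07 to 29.6 in the others, and ACTG2 and LMOD1 were at 0 in both libraries of tamoxifen plus alpelisib. Endothelial markers (8 genes) were also highest in vehicle at 21.6, against 1.45 to 15.2, with CLDN5 at 0 in both alpelisib libraries and EMCN and TEK at 0 in 1 of them. Leukocyte markers (10 genes) summed to 46.3 in vehicle and to between 89.9 and 163 elsewhere, with CD3E at 0 in 6 libraries. The single genes differed in direction. For tamoxifen minus vehicle 4 of the 7 tested had a negative log2 fold change, and the values ran from -2.31 to 5.28. Erythroid markers (4 genes) moved most, from 30.4 in vehicle and 73.6 and 109 with estradiol to 1238 and 938 with tamoxifen and 237 and 261 with the combination; all 4 rose with tamoxifen against vehicle and 2 of 4 fell with added alpelisib. The part of these cell types in the members' values was not tested. Where groups of bulk RNA differ, fewer cells of a type and less RNA per cell cannot be told apart.

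Fold changes were tested with limma on log2(FPKM + 1) over the 12314 genes that reached 1 FPKM in at least 1 library, all 39 members among them. They are given as log2 values ± SE from the fit, and a gene was called higher or lower at a two-sided Benjamini-Hochberg adjusted p under 0.05 over all genes. The vehicle library is shared by 3 of the 6 comparisons and every other group by 3, so their results are not independent of each other. With a single vehicle library, the spread behind comparisons with it was borrowed from the other groups. Replicate libraries differed by a median of 0.22 (estradiol), 0.19 (tamoxifen) and 0.08 (tamoxifen plus alpelisib) on the log2 scale over the members, close to the 0.25, 0.19 and 0.10 over all genes.

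MYC, the transcription factor, fell with most other members in some comparisons and moved against them in others. It fell with them for tamoxifen against vehicle (32 of 38 others negative), the combination against vehicle (37) and tamoxifen against estradiol (34). With added alpelisib (36 negative) and with estradiol against vehicle (12 negative) MYC moved against most of them. It was measured at 45.2 FPKM in the vehicle library, at 15.7 and 11.5 with estradiol, at 2.64 and 5.16 with tamoxifen, and at 15.3 and 18.5 with the combination. The vehicle value is above all others, both tamoxifen values are below all others, and the estradiol range of 11.5 to 15.7 overlaps that of tamoxifen plus alpelisib. MYC fell with tamoxifen against vehicle (-3.29 ± 0.34, limma adjusted p = 0.000949) and with estradiol against vehicle (-1.68 ± 0.34, adjusted p = 0.013). It rose when alpelisib was added to tamoxifen (1.91 ± 0.28, adjusted p = 0.0121), a ratio of mean FPKM of 4.32. It remained lower than in vehicle (-1.38 ± 0.34, adjusted p = 0.0245), and the difference between tamoxifen plus alpelisib and estradiol did not pass (0.30 ± 0.28, adjusted p = 0.396). The rise with alpelisib no longer passed without tamoxifen library 1, without either library of tamoxifen plus alpelisib, or with no filter on low values (adjusted p from 0.00201 to 0.119 over all alternatives). The decrease of the combination against vehicle was lost with no filter and without either combination library (adjusted p from 0.00609 to 0.114), and that of estradiol with only the groups compared and without estradiol library 2 (from 0.00269 to 0.0665).

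**Figure D2:**
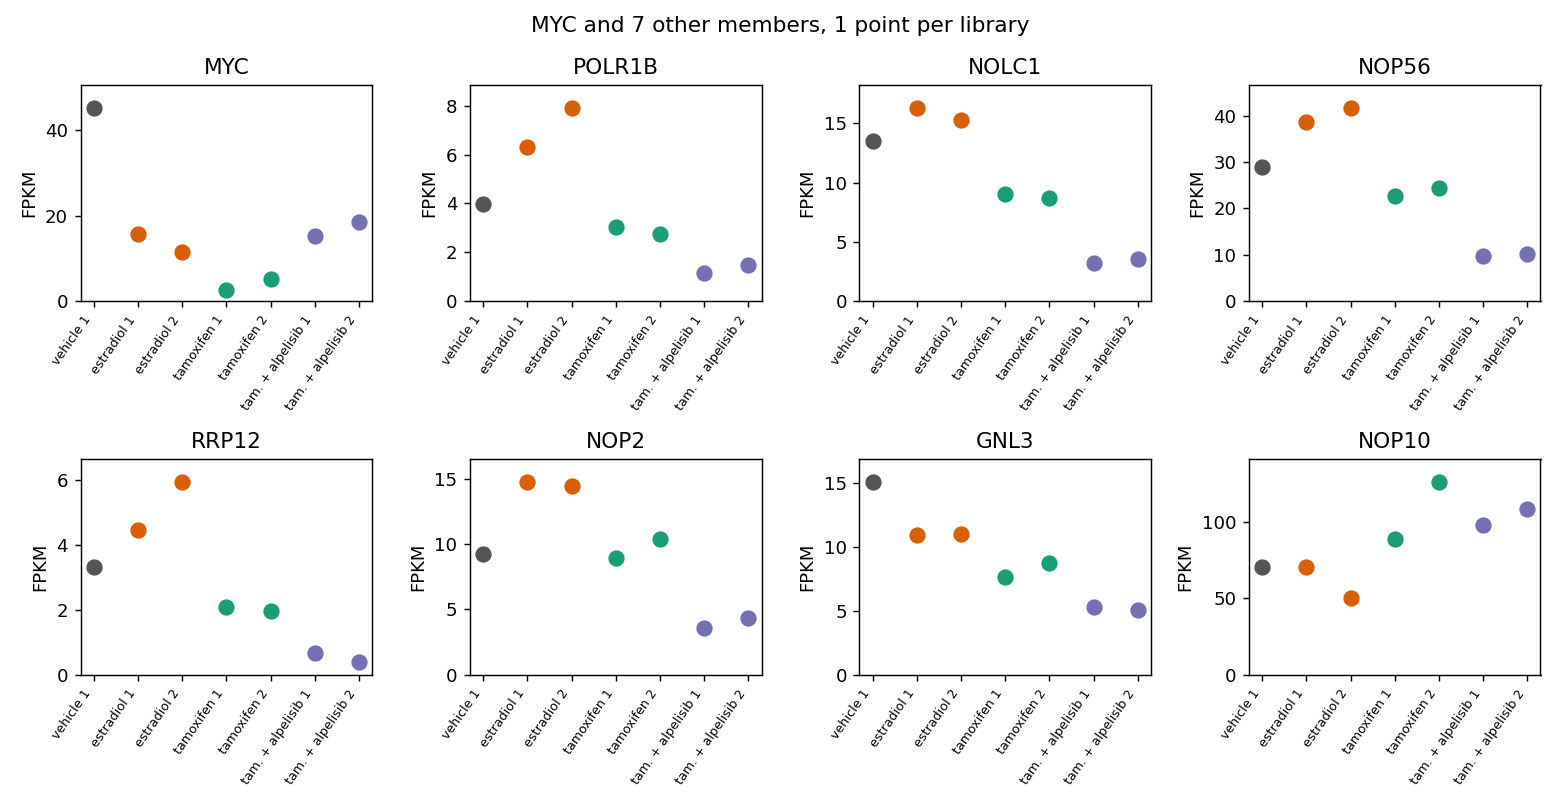
FPKM (linear axes from 0) of MYC and 7 other members in each of the 7 libraries, 1 point per library, coloured by group (tam. stands for tamoxifen). MYC rises from 2.64 and 5.16 with tamoxifen to 15.3 and 18.5 with added alpelisib, while POLR1B, NOLC1, NOP56, RRP12, NOP2 and GNL3 are lowest there and NOP10 is not.

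Adding alpelisib to tamoxifen asks what inhibition of PI3-kinase does to the tamoxifen-treated epithelium. Of the 39 members, 16 fell, and 1 rose, which was MYC. Among all genes tested 4.81% fell and 6.93% rose. The median of the 38 members other than MYC was -0.57, against -0.03 over all genes, and 36 of the 38 had a negative value. Both libraries of tamoxifen plus alpelisib lay below both tamoxifen libraries in 32 of the 39 members, an arrangement seen in 34.3% of all genes, and above both in 2 (30.2% of all genes). With either library of tamoxifen plus alpelisib left out, 0 of 39 members passed with limma, while 18 (without library 1) and 20 (without library 2) had an unadjusted p under 0.05; only 18 and 14 of all genes passed there, and the members' medians were -0.56 and -0.58. Without either tamoxifen library 4 members passed, and with no filter on low values 7 did. Proliferation markers moved in the same direction: 6 of 10 fell and 0 rose, and their part in the members' decrease was not tested.

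**Figure D3:**
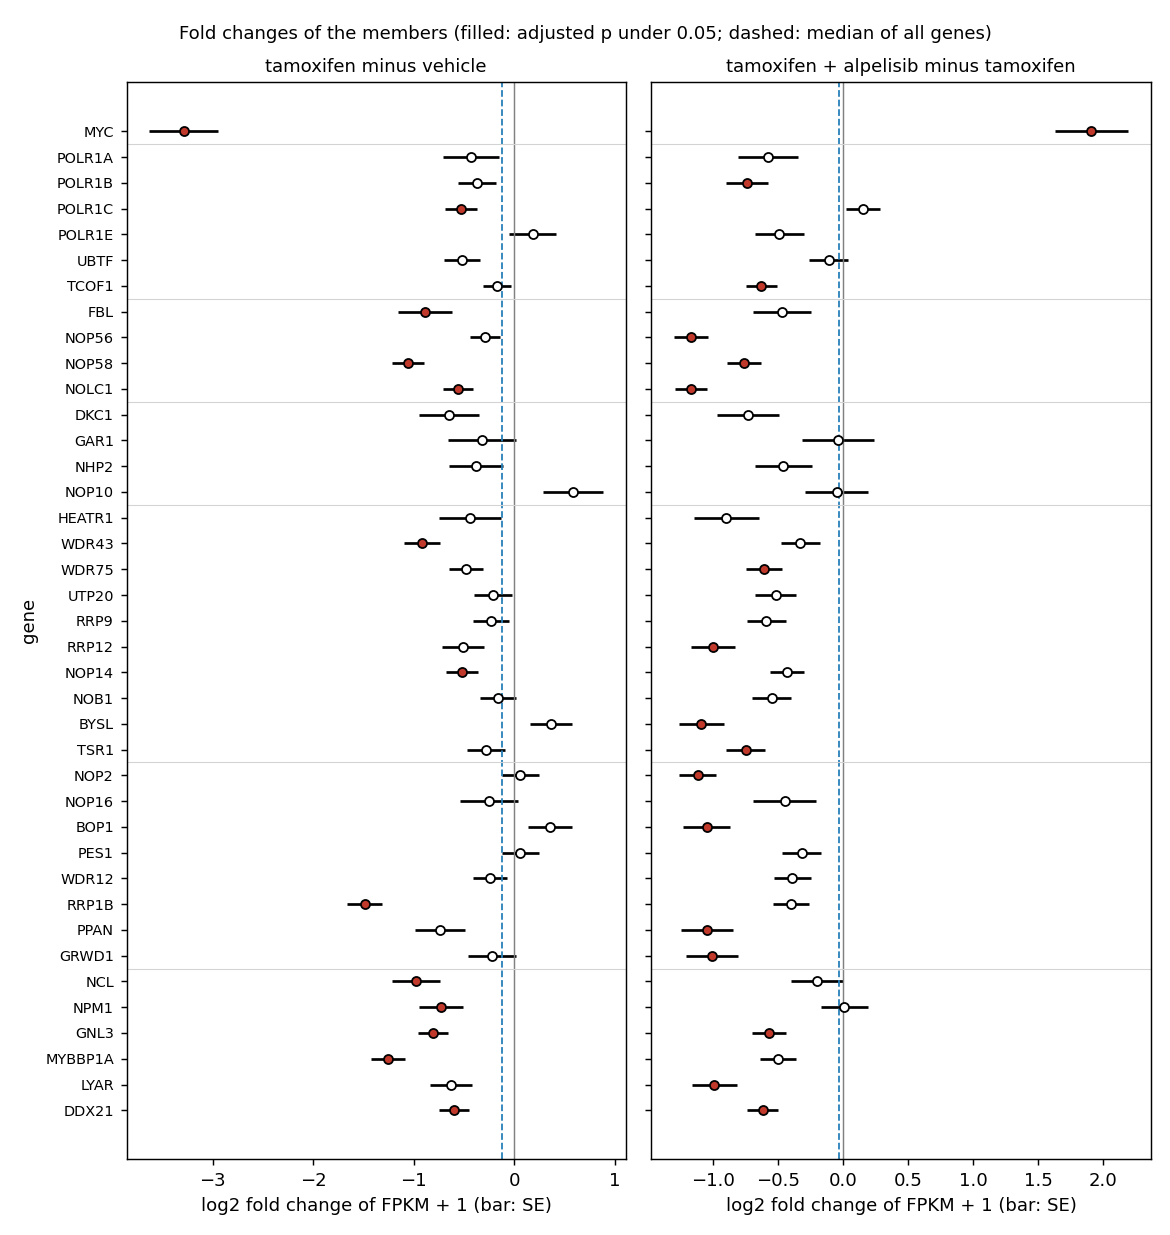
Log2 fold changes of FPKM + 1 (points) with SE (bars) of the 39 members, for tamoxifen minus vehicle (left) and tamoxifen plus alpelisib minus tamoxifen (right). Filled points have an adjusted p under 0.05 and the dashed line is the median of all genes, -0.12 on the left and -0.03 on the right; 13 members are filled on the left, all below 0, and 17 on the right, of which MYC alone lies above 0.

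The members of the RNA polymerase I group transcribe ribosomal DNA. With alpelisib added, 2 of 6 fell, POLR1B, which encodes the second largest subunit of the enzyme, and TCOF1, which encodes treacle, a nucleolar cofactor. POLR1B was at 3.99 FPKM in vehicle, 6.3 and 7.91 with estradiol, 3.01 and 2.74 with tamoxifen, and 1.16 and 1.48 with the combination (-0.74 ± 0.16 against tamoxifen, adjusted p = 0.0333). The 4 groups do not overlap for this gene. TCOF1 fell by 0.63 ± 0.12 on the log2 scale (adjusted p = 0.0234). Both calls were lost with libraries rescaled to the same sum. POLR1A, the gene of the largest subunit, ran from 2.17 and 2.21 FPKM with tamoxifen to 1.11 and 1.16 with added alpelisib, without passing (-0.58 ± 0.23, adjusted p = 0.156), and stood at 3.29 in vehicle and 7.23 and 12.3 with estradiol. POLR1E, for another subunit, was low throughout: 1.18 FPKM in vehicle, 2.89 and 2.4 with estradiol, 1.1 and 1.91 with tamoxifen, and 0.815 and 0.706 with the combination. In contrast to these, POLR1C, a subunit gene shared with RNA polymerase III, was at 28.4 FPKM in vehicle, 43.4 and 40 with estradiol, 19.0 and 19.7 with tamoxifen, and 20.9 and 22.1 with the combination. Its value for added alpelisib was 0.15 ± 0.13 (adjusted p = 0.503). UBTF, which encodes the upstream binding factor of ribosomal DNA, was at 25.2 FPKM in vehicle, 31.1 and 26.6 with estradiol, 15.7 and 18.8 with tamoxifen, and 15.7 and 16.0 with the combination, with tamoxifen and the combination overlapping.

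Box C/D snoRNPs place ribose methyl groups on the precursor. In this group 3 of 4 members fell with added alpelisib, among them the pair with the lowest fold changes of all members, NOLC1 and NOP56. NOP56, a core scaffold of the particle, was at 28.9 FPKM in vehicle, 38.7 and 41.7 with estradiol, 22.7 and 24.4 with tamoxifen, and 9.75 and 10.1 with the combination. NOLC1 is a nucleolar chaperone of snoRNPs and was counted in this group by the list of roles. It was at 13.5 FPKM in vehicle, 16.3 and 15.3 with estradiol, 9.01 and 8.69 with tamoxifen, and 3.23 and 3.54 with the combination. Neither gene's groups overlap, and the fold changes against tamoxifen were -1.17 ± 0.13 for NOP56 (adjusted p = 0.00578) and -1.17 ± 0.12 for NOLC1 (adjusted p = 0.0055). NOP58, the partner of NOP56, was at 61.3 FPKM in vehicle, 44.8 and 41.0 with estradiol, 27.4 and 30.5 with tamoxifen, and 16.4 and 16.8 with the combination (-0.76 ± 0.13, adjusted p = 0.0201). FBL, the methyltransferase fibrillarin, was at 96.8 FPKM in vehicle, 111.0 and 75.7 with estradiol, 46.2 and 58.4 with tamoxifen, and 37.8 and 36.4 with the combination; this last difference did not pass (-0.47 ± 0.22, adjusted p = 0.22).

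Box H/ACA snoRNPs convert uridines to pseudouridines. With added alpelisib 0 of the 4 core members passed by limma; 1 had an unadjusted p under 0.05, DKC1, at -0.73 ± 0.24 (adjusted p = 0.106). DKC1, the pseudouridine synthase dyskerin, was at 9.16 FPKM in vehicle, 13.6 and 21.4 with estradiol, 6.48 and 4.59 with tamoxifen, and 2.99 and 2.81 with the combination. GAR1, which helps release the substrate RNA, was at 28.4 FPKM in vehicle, 36.8 and 21.3 with estradiol, 19.6 and 25.9 with tamoxifen, and 20.2 and 23.7 with the combination. The estradiol values of GAR1 overlap every other group, and those of tamoxifen and the combination overlap each other, unlike those of DKC1. NHP2, an RNA-binding subunit, was at 107.0 FPKM in vehicle, 94.1 and 69.6 with estradiol, 71.8 and 93.2 with tamoxifen, and 55.5 and 63.3 with the combination. NOP10, the smallest subunit, was at 70.4 FPKM in vehicle, 70.1 and 50.2 with estradiol, 88.7 and 126.0 with tamoxifen, and 97.7 and 108.0 with the combination. Outside estradiol minus vehicle, NOP10 was the only member besides MYC that was called higher in any of the 6 comparisons, namely against estradiol with tamoxifen (0.83 ± 0.24, adjusted p = 0.0316) and with tamoxifen plus alpelisib (0.78 ± 0.24, adjusted p = 0.0352).

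The small subunit is cut out of the precursor by the processome and its late-acting partners. With alpelisib added, 4 of 10 members fell: BYSL, RRP12, TSR1 and WDR75. BYSL, the late assembly factor bystin, was at 3.41 FPKM in vehicle, 4.98 and 3.44 with estradiol, 4.58 and 4.76 with tamoxifen, and 1.78 and 1.57 with the combination (-1.09 ± 0.17, adjusted p = 0.0154). Its combination libraries are below every other library, and those of estradiol and tamoxifen overlap. RRP12, for an export factor of both subunits, was the lowest member in both combination libraries, at 0.66 and 0.381 FPKM against 2.07 and 1.97 with tamoxifen (-1.0 ± 0.17, adjusted p = 0.0196). TSR1, an assembly factor of the late small subunit, fell by 0.75 ± 0.15 on the log2 scale (adjusted p = 0.03) and WDR75, of the early processome, by 0.61 ± 0.14 (adjusted p = 0.0392). WDR43, of the same early subcomplex and the highest of the 10 in mean FPKM, was at 18.4 in vehicle, 16.2 and 19.4 with estradiol, 8.55 and 10 with tamoxifen, and 7.11 and 7.26 with the combination, without passing against tamoxifen (-0.33 ± 0.15, adjusted p = 0.205). UTP20, a long scaffold protein, was at 2.76 FPKM in vehicle, 4.73 and 6.09 with estradiol, 2.49 and 2.01 with tamoxifen, and 1.24 and 1.27 with the combination (-0.52 ± 0.16, adjusted p = 0.0852). The remaining 4, HEATR1, RRP9, NOP14 and NOB1, had values from -0.90 to -0.43 that did not pass.

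Members of the large subunit pathway act on the precursors of the large ribosomal RNAs. With alpelisib added, 4 of 8 fell: NOP2, BOP1, PPAN and GRWD1. NOP2, an RNA cytosine methyltransferase with an E-box in the window printed above, was at 9.24 FPKM in vehicle, 14.8 and 14.5 with estradiol, 8.98 and 10.4 with tamoxifen, and 3.55 and 4.33 with the combination (-1.12 ± 0.14, adjusted p = 0.00876). BOP1, which forms a complex with PES1 and WDR12, was at 15.3 FPKM in vehicle, 32.9 and 23.5 with estradiol, 19.3 and 20.1 with tamoxifen, and 9.13 and 8.85 with the combination (-1.05 ± 0.18, adjusted p = 0.0187). In both genes the combination libraries are the lowest and the estradiol libraries the highest. PES1 was at 14.4 FPKM in vehicle, 25.1 and 20.5 with estradiol, 14.6 and 15.6 with tamoxifen, and 11.3 and 12.5 with the combination. Its value for added alpelisib was -0.32 ± 0.15 (adjusted p = 0.209) and that of WDR12 was -0.39 ± 0.14 (adjusted p = 0.124), so 1 gene of this 3-gene complex passed. PPAN, an assembly factor of the large subunit, was at 23.8 FPKM in vehicle, 14.8 and 10.5 with estradiol, 12.3 and 15.5 with tamoxifen, and 5.73 and 6.62 with the combination (-1.05 ± 0.20, adjusted p = 0.0258). GRWD1, a WD repeat protein of preribosomes, fell by 1.01 ± 0.20 on the log2 scale (adjusted p = 0.027), from 6.12 and 7.14 FPKM to 3.53 and 2.16. RRP1B, a nucleolar protein, was at 6.71 FPKM in vehicle, 3.84 and 4.3 with estradiol, 1.57 and 1.93 with tamoxifen, and 1.04 and 1.11 with the combination. It had already lost most of its level with tamoxifen alone.

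Of the 6 nucleolar proteins with several functions, 3 fell with added alpelisib: LYAR, DDX21 and GNL3 (1 with libraries rescaled to the same sum). LYAR, a nucleolar growth regulator, was at 23.7 FPKM in vehicle, 16.6 and 17.8 with estradiol, 12.9 and 17.3 with tamoxifen, and 6.46 and 7.71 with the combination (-0.99 ± 0.17, adjusted p = 0.021). DDX21, an RNA helicase, was at 20.2 FPKM in vehicle, 21.2 and 21.3 with estradiol, 13.4 and 12.6 with tamoxifen, and 8.45 and 7.67 with the combination (-0.62 ± 0.12, adjusted p = 0.0276). GNL3, known as nucleostemin, fell by 0.57 ± 0.13 on the log2 scale (adjusted p = 0.0386). NPM1, the histone and ribosome chaperone nucleophosmin and the member with the highest mean, was at 243.0 FPKM in vehicle, 410.2 and 339.0 with estradiol, 149.8 and 143.0 with tamoxifen, and 151.0 and 144.0 with the combination. The tamoxifen and combination ranges of NPM1 overlap, and the difference was 0.01 ± 0.18 (adjusted p = 0.983), with a sign that depends on the scaling. NPM1 has processed pseudogene copies in the mouse genome, and the sources used here do not give how reads were shared among them. NCL, nucleolin, had -0.20 ± 0.20 (adjusted p = 0.546). MYBBP1A, a MYB-binding nucleolar protein, was at 41.0 FPKM in vehicle, 45.7 and 48.4 with estradiol, 16.0 and 17.1 with tamoxifen, and 10.6 and 12.3 with the combination, and did not pass against tamoxifen (-0.50 ± 0.14, adjusted p = 0.0656).

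Tamoxifen against vehicle asks what the drug does in the absence of ovarian estrogen. Of the 39 members 13 fell (33.3%) and 0 rose with limma, against 24.1% and 14.9% of all genes, so the share that fell is not far from the background. A positive value was found in 6 members, 0 of them with an unadjusted p under 0.05. The median of the 38 members other than MYC was -0.44, against -0.12 over all genes and 0.75 over the 10 proliferation markers, 3 of them negative. By role, 5 of 6 nucleolar and 3 of 4 box C/D genes fell (2 and 2 with median-of-ratios scaling, 3 and 2 with the other scalings), and 1 of 6 polymerase I, 0 of 4 H/ACA, 2 of 10 small subunit and 1 of 8 large subunit genes; differences between roles were not tested. After MYC, the lowest values were those of RRP1B (-1.49 ± 0.17, adjusted p = 0.00118), MYBBP1A (-1.26 ± 0.17, adjusted p = 0.00224) and NOP58 (-1.06 ± 0.16, adjusted p = 0.0039). NCL (-0.98), WDR43 (-0.92), FBL (-0.89), GNL3 (-0.81), NPM1 (-0.73), DDX21 (-0.60), NOLC1 (-0.56), POLR1C (-0.53) and NOP14 (-0.52) fell too. BYSL (0.36 ± 0.21) and BOP1 (0.35 ± 0.22) did not pass. Both tamoxifen libraries were below the vehicle library in 32 of the 39 members, as in 50.3% of all genes, and above it in 4, as in 36.9%. With median-of-ratios scaling, which moved the median of all genes from -0.12 to 0.02, 7 members fell and 1 rose. When only vehicle and tamoxifen libraries were fitted 4 members passed, and between 6 and 16 did with a library left out, the fewest without either library of tamoxifen plus alpelisib.

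Estradiol against vehicle asks what the hormone itself does after ovariectomy. In the polymerase I group 5 of 6 genes rose (2 with median-of-ratios scaling, 3 with quantile normalization, 6 with libraries rescaled to the same sum) and 0 had a negative value. POLR1A had the highest value (1.29 ± 0.28, adjusted p = 0.0157), followed by TCOF1 (0.99 ± 0.14, adjusted p = 0.00432), POLR1E (0.74), POLR1B (0.69) and POLR1C (0.54), while UBTF was at 0.19 ± 0.18 (adjusted p = 0.468). In the large subunit group BOP1 (0.83), PES1 (0.62), NOP2 (0.61) and WDR12 (0.60) rose, so all 3 genes of the PES1 complex did (1 gene of the group with median-of-ratios scaling), and PPAN (-0.88 ± 0.25, adjusted p = 0.0357) and RRP1B (-0.61 ± 0.17, adjusted p = 0.0325) fell. In the small subunit group UTP20 rose (0.76 ± 0.19, adjusted p = 0.026), a call lost with median-of-ratios scaling and with quantile normalization. Over all 39 members 10 rose and 3 fell (MYC, PPAN and RRP1B), which is near the 22.7% and 12.8% of all genes. The split depends on scaling: 3 rose and 6 fell with median-of-ratios scaling, and 16 rose and 1 fell when each library was rescaled to the same sum. With only vehicle and estradiol libraries in the fit 0 members passed with limma (6 at an unadjusted p under 0.05), and 3 did without either library of tamoxifen plus alpelisib. Of the 10 proliferation markers 9 rose, and their part was not tested.

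Tamoxifen plus alpelisib against vehicle was the comparison with vehicle in which most members fell: 32 of 39, and 0 rose, against 21.8% and 13.1% of all genes. All 10 small subunit, 4 of 4 box C/D and 6 of 6 nucleolar genes fell, with 6 of 8 large subunit, 4 of 6 polymerase I and 1 of 4 H/ACA genes. With median-of-ratios scaling 25 of the 39 members fell, by role 8, 4, 5, 4, 2 and 1 in the same order. The lowest values were RRP1B (-1.90 ± 0.17, adjusted p = 0.000573), NOP58 (-1.82 ± 0.16, adjusted p = 0.000625), PPAN (-1.79 ± 0.25, adjusted p = 0.00312) and MYBBP1A (-1.76 ± 0.17, adjusted p = 0.000778). The 7 members that did not pass were POLR1C, POLR1E, GAR1, NHP2, NOP10, NOP16 and PES1. The median of the 38 members other than MYC was -1.04, against -0.15 over all genes and -0.03 over the 10 proliferation markers, 5 of them negative. In 38 of 39 members both combination libraries were below the vehicle library (55% of all genes). With a combination library left out 13 (without library 1) and 17 (without library 2) passed.

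Against estradiol, tamoxifen had 29 members lower and 1 higher (NOP10), where 36.2% of all genes were lower and 12.3% higher. Tamoxifen plus alpelisib had 34 lower and 1 higher (NOP10), where 37.5% were lower and 15.7% higher. All 6 polymerase I genes were lower in each (for tamoxifen 4 with median-of-ratios scaling and 5 with quantile normalization), with POLR1A at -1.71 ± 0.23 with tamoxifen (adjusted p = 0.00195) and -2.29 ± 0.23 with the combination (adjusted p = 0.000582), and TCOF1 at -1.17 ± 0.12 (adjusted p = 0.000714) and -1.80 ± 0.12 (adjusted p = 0.000163). The medians of the 38 members were -0.73 and -1.28, each against -0.26 over all genes. With median-of-ratios scaling they were -0.38 and -0.95, against 0.01 in both, and 19 and 34 members were lower. All 10 proliferation markers were lower in both comparisons.

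Against estradiol, fold changes followed transcript length in part, among members and among all genes. For tamoxifen minus estradiol, Spearman's rho with the length of the longest annotated transcript was -0.49 over 38 members and -0.31 over 12230 genes, which are not independent replicates and share the same libraries. Members of at least 4000 nt had a median of -1.0 (12 genes) and those under 2000 nt one of -0.19 (9 genes), against -0.47 and 0.09 over all genes of those lengths. The longest annotated transcript was taken whatever its type, so it can differ from the one expressed. By this rule WDR12 counts as 10012 nt, NOP58 as 9507 nt and NCL as 8202 nt. Which transcripts were expressed was not tested. For added alpelisib rho was -0.19 over members and 0.02 over all genes, and the medians were -0.55 for long and -0.45 for short members. With length smoothed out of the fold changes 24 members passed for added alpelisib, 23 of them lower. The short H/ACA genes NOP10, NHP2 and GAR1, and POLR1C and NPM1, are thus among the short transcripts that did not pass, whereas LYAR and GRWD1, also under 2000 nt, fell.

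**Figure D4:**
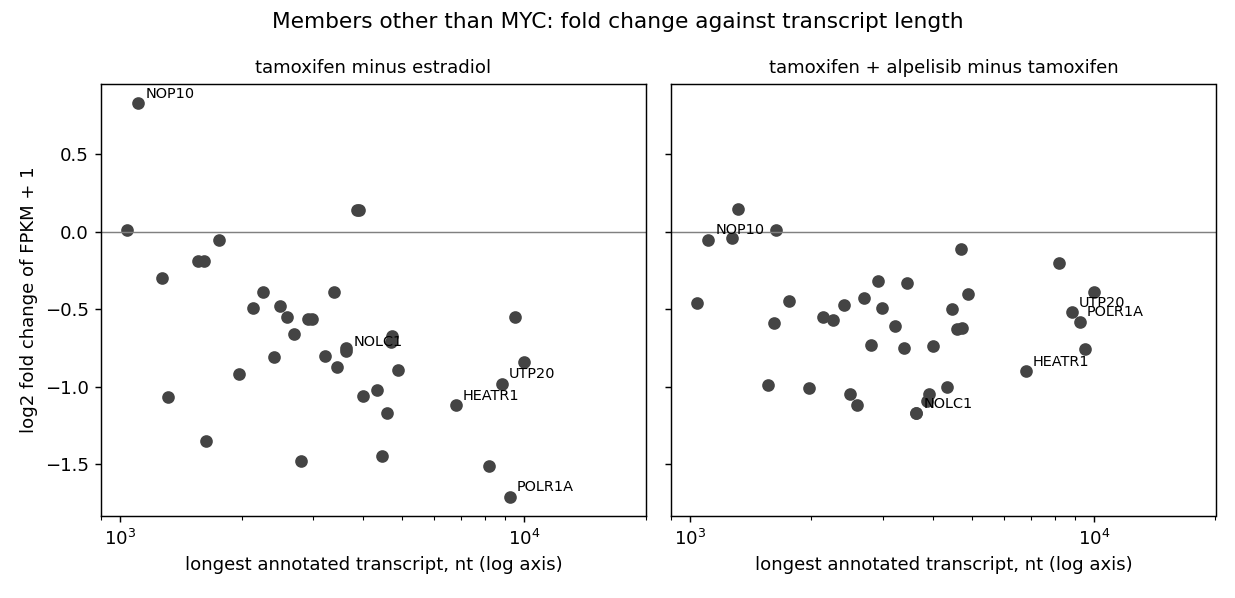
Log2 fold change of FPKM + 1 against the length of the longest annotated transcript (log axis, nt) for the 38 members other than MYC, 1 point per gene, for tamoxifen minus estradiol (left) and tamoxifen plus alpelisib minus tamoxifen (right). On the left the points descend with length (rho = -0.49); on the right they do so less (rho = -0.19), and a difference between these rho values was not tested.

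Members with and without the E-box letters were set side by side. With added alpelisib, among the 7 members with CACGTG 3 fell (NOP2, GRWD1 and TSR1) and the median was -0.52, and among the 26 with a window without it 10 fell and the median was -0.57. For tamoxifen against vehicle, 2 of 7 (MYBBP1A and WDR43) and 8 of 26 fell, with medians of -0.22 and -0.46. For estradiol against vehicle, 3 of 7 and 5 of 26 rose, with medians of 0.61 and 0.20, and the medians were -0.87 and -0.67 for tamoxifen and -1.50 and -1.13 for the combination against estradiol. Against vehicle the combination had -1.06 and -1.05. These are counts over few genes and were not tested.

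The other genes of the pathway were read from wider lists. Of 42 further small subunit processome genes, 8 fell and 0 rose with added alpelisib, with a median of -0.32 (3 fell with quantile normalization or with libraries rescaled to the same sum, and 1 rose with median-of-ratios scaling). MPHOSPH10, of the U3 snoRNP, went from 8.41 and 6.62 FPKM with tamoxifen to 2.91 and 2.28 (-1.24 ± 0.16, adjusted p = 0.00882), and the processome GTPase BMS1 from 11.3 and 8.75 to 4.52 and 4.47 (-0.99 ± 0.15, adjusted p = 0.014). Of 38 further large subunit assembly genes, 4 fell and 0 rose, among them the methyltransferase FTSJ3 (-0.97 ± 0.13, adjusted p = 0.00894) and the assembly factor MAK16 (-0.86 ± 0.15, adjusted p = 0.0194). Of 9 snoRNP assembly genes 1 fell, RUVBL1 (-0.56 ± 0.14, adjusted p = 0.0487), an ATPase of the chaperone complex. Of 20 nucleases and their subunits 1 fell, EXOSC1 of the exosome (-0.75 ± 0.15, adjusted p = 0.0283), and 1 rose, POP4 of RNase P and RNase MRP (0.75 ± 0.14, adjusted p = 0.0262). Of 11 further polymerase I factors 0 passed with limma, and 2 had an unadjusted p under 0.05, 1 in each direction. RRN3, which links growth signals to polymerase I, ran from 6.78 and 5.55 FPKM with tamoxifen to 3.87 and 3.94 (-0.54 ± 0.18, adjusted p = 0.103). In the order given, 19%, 10.5%, 11.1%, 5% and 0% of these lists fell, against 41% of the 39 members. Among all genes tested 4.81% fell and 6.93% rose, so by calls alone the nucleases, with 5% in each direction, are near that background. Their median was -0.40, with 17 of 20 negative. At an unadjusted limma p under 0.05, 11 were lower and 1 higher. The large subunit and snoRNP assembly lists both had a median of -0.30, with 32 of 38 and 8 of 9 negative. The polymerase I factors had -0.13 (8 of 11 negative), against -0.03 over all genes. Whether the shares differ was not tested.

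Among ribosomal protein genes no difference passed with added alpelisib. Of 78, 0 passed with limma and 0 had an unadjusted p under 0.05, with a median of -0.07, and their summed FPKM was 56782 and 71599 with tamoxifen and 58738 and 63071 with the combination. Against the vehicle sum of 108294, 12 of 78 fell with tamoxifen (median -0.71), 18 with estradiol (median -0.89) and 20 with the combination (median -0.83), and 0 rose in any of these. These are 15.4%, 23.1% and 25.6% of the list, against 24.1%, 12.8% and 21.8% of all genes. In the main fit 77, 76 and 77 of the 78 values were negative. The counts depend on scaling. With median-of-ratios scaling 13, 53 and 19 fell, against 2525, 2250 and 2122 of all 12314 genes. With quantile normalization 30, 12 (and 2 rose, median -0.15) and 39 fell, against 2572, 2212 and 2283 of all genes. With libraries rescaled to the same sum 38, 30 and 45 fell, against 2488, 1058 and 2151. RPL5, RPL4 and RPSA had the lowest p with tamoxifen, RPL5 going from 501 FPKM in vehicle to 221 and 215 (-1.20 ± 0.26, adjusted p = 0.0139). In the comparisons with estradiol the direction of the ribosomal protein list depends on scaling: its median for tamoxifen minus estradiol was 0.17, 0.53 with median-of-ratios scaling and -0.30 with quantile normalization. Many of these genes have near-identical processed pseudogenes, so single values are uncertain.

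The list of MYC's own network was chosen to hold mostly MAX and its partners, so partners among the genes that rose are no result in themselves. Its median for added alpelisib was 0.19, with 5 of 11 values negative and the lowest at -0.74. With added alpelisib 4 of 11 rose and 0 fell: MXD1 (1.10 ± 0.21, adjusted p = 0.0263), MXD4 (0.68 ± 0.15, adjusted p = 0.0387), MNT (0.70 ± 0.16, adjusted p = 0.0404) and MXI1 (0.61 ± 0.14, adjusted p = 0.0422), which was named to complete the count. All 4 encode partners of MAX that are known to repress E-box genes. MXD1 was at 2.16 FPKM in vehicle, 2.93 and 1.98 with estradiol, 5.4 and 7.86 with tamoxifen, and 14.4 and 15.9 with the combination. The combination libraries are the highest and the tamoxifen libraries next, and MXD1 also rose against vehicle with tamoxifen (1.25 ± 0.26, adjusted p = 0.0116) and with the combination (2.35 ± 0.26, adjusted p = 0.0014). MXD4 and MNT stood near their vehicle values with the combination: MXD4 was at 23.7 and 25.7 FPKM there, against 14.9 and 15 with tamoxifen and 22.4 in vehicle, and MNT at 6.95 and 8.18, against 3.78 and 4.78 and 8.39. MAX itself had -0.07 ± 0.14 for added alpelisib (adjusted p = 0.766). With each library rescaled to the same sum 2 of the 11 passed, both higher. Among all genes 6.93% rose and 4.81% fell with added alpelisib in the main fit.

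**Figure D5:**
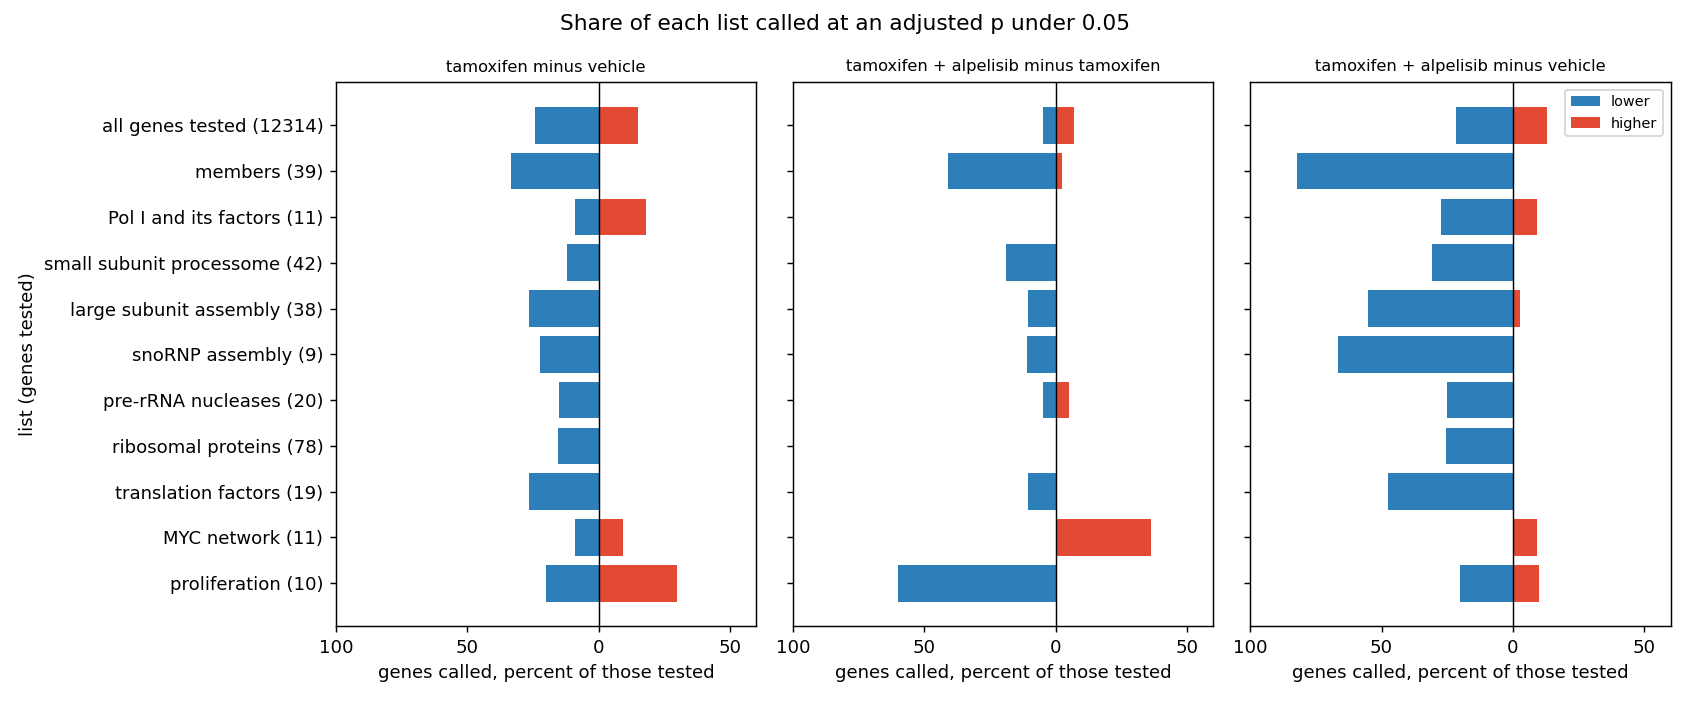
Share of each list called lower (left of 0) or higher (right of 0) at an adjusted p under 0.05, in percent of the genes tested (number after the name), for 3 comparisons. With alpelisib added to tamoxifen 16 of 39 members are lower against 4.81% of all genes, 0 of 78 ribosomal protein genes pass, and 4 of 11 MYC network genes are higher.

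Translation factors fell in 2 of 19 cases with added alpelisib, and 0 rose. With median-of-ratios scaling 2 fell and 1 rose, and with quantile normalization 1 fell and 0 rose. With libraries rescaled to the same sum 1 fell and 1 rose. EIF4G1, the scaffold of the cap-binding complex, was at 63.6 FPKM in vehicle, 77.2 and 75.9 with estradiol, 57.5 and 56.9 with tamoxifen, and 33.5 and 33.4 with the combination (-0.76 ± 0.13, adjusted p = 0.0195). EIF3B, of the initiation factor that binds the small subunit, fell as well (-0.95 ± 0.19, adjusted p = 0.0305). Genes of the 5S particle and the p53 arm, which is known to respond to faults in ribosome assembly, rose in 2 of 12 cases and fell in 0. For both lists the background is the 4.81% of all genes that fell and the 6.93% that rose. SESN2, a stress-induced inhibitor of mTOR signalling, was at 4.89 FPKM in vehicle, 4.57 and 5.79 with estradiol, 1.71 and 1.98 with tamoxifen, and 5.43 and 6.31 with the combination (1.27 ± 0.16 against tamoxifen, adjusted p = 0.00768). MDM2, the ubiquitin ligase of p53, went from 7.57 and 8.3 FPKM to 13 and 14.8 (0.74 ± 0.14, adjusted p = 0.0246), and was at 13.3 in vehicle. CDKN1A, a p53 target, had 0.77 ± 0.27 and did not pass (adjusted p = 0.119).

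The row of the ribosomal RNA precursor, RN45S, was at 240.3 FPKM in vehicle, 764 and 2276 with estradiol, 530.4 and 229.5 with tamoxifen, and 205 and 189 with the combination. The estradiol libraries are the highest and lie far from each other; the tamoxifen libraries bracket the vehicle value. RN45S rose with estradiol against vehicle (2.45 ± 0.72, adjusted p = 0.0416) and did not pass for added alpelisib (-0.82 ± 0.59, adjusted p = 0.415). The sources used here do not give how ribosomal RNA was removed, and its part in this row was not tested.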

How the data were processed

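RNA-seq of 7 libraries was analysed from 1 deposited table of FPKM values per gene, made by the authors; per the submitters' processing notes CASAVA, Bowtie and Cufflinks were used, with no versions or options given. The only build named there is the human hg19, although the symbols are mouse symbols, so the only coordinates printed are those of RefSeq's own promoter table. The sources used here give no read depth, so no counting error can be stated, and nothing says that same-numbered mice were paired.

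FPKM were used without further scaling, as log2(FPKM + 1), which understates changes of low genes. Genes with at least 1 FPKM in at least 1 library were kept (12314). limma 3.58.1 in R 4.3.3 (trend, moderated test) fitted 4 group means over 7 libraries, with 3 residual degrees of freedom and 3.27 from the prior, and p values were adjusted by Benjamini-Hochberg within each of 6 comparisons. The vehicle library was made from a single mouse or from pooled mice (which, the sources used here do not give) and was assumed to vary like the others. The method was tested on simulated data. Transcript lengths are those of each gene's longest transcript of any type in GENCODE M21. Counts and plots were made with pandas 2.3.3, matplotlib 3.10.9 and numpy 2.4.6 (Spearman's rho with scipy 1.17.1) under Python 3.11.15.

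Values in every library are given for MYC and, in each role, for the member with the highest mean and those with the highest and lowest fold change in 3 comparisons (tamoxifen or estradiol minus vehicle, and added alpelisib), with RRP12, GRWD1 and genes in the plots besides. From the wider lists up to 3 genes of lowest p per comparison could be named; MAX, MXI1 and CDKN1A were named after their values were seen. The members and lists were chosen with earlier results of these data known. Alternatives were 3 other scalings, other filters, a pseudocount of 0.1, other variance settings, only the compared groups and a replicate block. Each estradiol, tamoxifen and combination library was also left out in turn, but never the single vehicle library. Fits with length or GC smoothed out were chosen after seeing the data.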

Additional observations from a re-analysis of the deposited data

How the results depend on the processing

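Counts of members called by limma moved by over 1.5 times in 4 of the 6 comparisons. For tamoxifen minus vehicle (13 called) they were 8 with median-of-ratios scaling, 4 with only the groups compared, and 6 to 16 with a library left out. For estradiol minus vehicle (13) they were 6 with no filter, 0 with only the groups compared, where 6 of 39 had an unadjusted p under 0.05, and 3 to 12 with a library left out. For tamoxifen plus alpelisib minus vehicle (32) they were 13 to 33 with a library left out. For added alpelisib (17) they were 7 with no filter and 0 to 19 with a library left out. Correlations of same-numbered deviations were -0.403 (estradiol and tamoxifen), -0.182 (estradiol and the combination) and 0.273 (tamoxifen and the combination). They cannot decide whether the mouse numbers pair the groups, because each group gives a single difference between libraries. With the numbers as a replicate block in the 6 treated libraries, 7 members passed for added alpelisib, against 18 without it. For tamoxifen minus estradiol 24 passed, against 30, and for the combination minus estradiol 34, against 35. The counts against estradiol stayed within 1.5 times under all alternatives run. Among single members 1 called result turned its direction: NOP58 for tamoxifen minus estradiol was 0.05 with transcript length smoothed out. In 68 of the 4212 values recomputed, the sign changed without a call in either fit; between scalings this touched 9 members for estradiol minus vehicle and 7 for tamoxifen minus estradiol. A further 3650 kept sign and side of the threshold, 399 no longer passed and 94 newly passed; the cause was not tested, beyond fewer libraries or groups in some fits. With no read depth, genes near 1 FPKM such as RRP12 and POLR1E are the least certain.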
